A study of Arabidopsis thaliana with 4 samples.

Results

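The 121 genes described here are nuclear genes of Arabidopsis thaliana whose transcripts were at least 3 times lower in serrate-1 (se-1) globular embryos than in wild-type ones. They were chosen by the measured values themselves. A gene had to be a single locus on one of the 5 nuclear chromosomes and to have a mean of at least 5 CPM, the counts scaled to a library total of 1e+06 reads, over the 4 libraries. Its mean wild-type CPM had to be at least 3 times its mean se-1 CPM, and each se-1 value had to lie below both wild-type values. Of 27576 nuclear single-locus rows, 13773 reached the mean of 5 CPM. The fall met the rule in 124 of these rows, or 0.900%, and 3 of the 124 were left out by name. The same rule in the other direction, with se-1 at least 3 times wild type, held for 635 rows, or 4.61%. Because the values chose the genes, the falls below are a description of these libraries, with no test on the 121 genes.

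The libraries hold amplified messenger RNA from embryos with 32 to 64 cells. Wild type was the Columbia (Col) ecotype, and se-1 was in the same background. Each genotype had 2 libraries, described as biological replicates, from soil-grown plants grown in long days (16 h light, 8 h dark, 22 °C) after at least 4 days in the cold. The values per gene are raw read counts, and the 4 libraries hold between 18580516 and 20882004 counts. The SERRATE transcript itself was at 69.8 and 71.0 CPM in se-1 and at 97.2 and 97.4 CPM in wild type, so the gene was still counted in the mutant. In bulk samples such as these, fewer cells of a type and less RNA per cell cannot be told apart.

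SERRATE, a zinc-finger protein, helps DICER-LIKE1 and HYPONASTIC LEAVES1 to cut microRNA precursors in the nucleus. It also associates with the cap-binding complex and takes part in pre-mRNA splicing. The se-1 allele is viable and retains part of the protein's activity, unlike null alleles, which stop development in the embryo. Transcripts that microRNAs cut usually rise when processing fails.

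The promoters of the 5 genes with the largest ratios are shown because these genes stand apart from the other members in size of the fall. Each runs from 250 bases before to 50 bases after the annotated start in the TAIR10.1 assembly and reads along the gene. MRD1 lies on the minus strand at chr1:19964663-19964962, BGLU28 on the plus strand at chr2:18346056-18346355, GH9B9 on the minus strand at chr2:18388061-18388360, AT3G43670 on the plus strand at chr3:15566817-15567116 and BAM5 on the minus strand at chr4:8669477-8669776. Capitals mark matches, on either strand, to GAGAC, the core of a sulfur-responsive element, and to the core of the box that positions the transcription start in many promoters, spelled TATAAA.
MRD1: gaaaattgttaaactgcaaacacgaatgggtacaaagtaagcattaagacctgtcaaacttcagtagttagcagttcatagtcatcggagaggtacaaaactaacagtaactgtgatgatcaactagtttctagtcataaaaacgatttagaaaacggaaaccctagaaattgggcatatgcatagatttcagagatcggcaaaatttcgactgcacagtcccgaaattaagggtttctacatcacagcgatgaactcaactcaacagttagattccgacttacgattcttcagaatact
BGLU28: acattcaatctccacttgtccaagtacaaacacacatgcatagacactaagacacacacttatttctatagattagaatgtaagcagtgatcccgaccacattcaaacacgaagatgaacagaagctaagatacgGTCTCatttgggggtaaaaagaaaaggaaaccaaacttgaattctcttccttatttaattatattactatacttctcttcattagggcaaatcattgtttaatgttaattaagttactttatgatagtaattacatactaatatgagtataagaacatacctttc
GH9B9: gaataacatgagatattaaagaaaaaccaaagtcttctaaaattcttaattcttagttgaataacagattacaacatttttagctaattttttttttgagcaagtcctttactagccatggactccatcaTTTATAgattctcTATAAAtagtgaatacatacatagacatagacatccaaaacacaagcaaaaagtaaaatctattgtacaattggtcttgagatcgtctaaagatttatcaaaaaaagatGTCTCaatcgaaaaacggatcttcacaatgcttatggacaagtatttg
AT3G43670: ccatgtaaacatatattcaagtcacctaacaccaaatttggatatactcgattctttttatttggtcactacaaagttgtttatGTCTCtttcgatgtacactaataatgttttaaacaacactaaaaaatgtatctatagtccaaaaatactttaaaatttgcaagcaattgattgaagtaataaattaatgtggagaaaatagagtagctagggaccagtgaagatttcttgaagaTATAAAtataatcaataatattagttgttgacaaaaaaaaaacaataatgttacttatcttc
BAM5: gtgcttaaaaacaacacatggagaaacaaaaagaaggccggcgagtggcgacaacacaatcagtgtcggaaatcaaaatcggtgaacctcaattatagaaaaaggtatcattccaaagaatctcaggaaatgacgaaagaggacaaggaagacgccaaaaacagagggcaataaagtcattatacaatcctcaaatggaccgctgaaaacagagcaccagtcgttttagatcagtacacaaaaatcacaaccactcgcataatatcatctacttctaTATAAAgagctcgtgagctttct
In BGLU28 the GAGAC core lay on the opposite strand with its first base at position -115, counted from the start as 1. In GH9B9 it lay at position 3, and the other motif lay at -107 with a copy on the opposite strand at -120. In AT3G43670 the GAGAC core lay on the opposite strand at -166 and the other motif at -12. The BAM5 window held TATAAA at 28, and the MRD1 window held neither motif. Over all members, GAGAC on either strand was in 46 of 121 windows (38.0%), beside 32.8% of the 27350 windows of all protein-coding genes. TATAAA was in 49.6% of member windows beside 52.2%, the ABA-response core ACGTG in 24.0% beside 26.7%, TGGGCC in 15.7% beside 15.5% and the MYB core TAACGG in 9.09% beside 7.05%.

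MRD1 (AT1G53480), named for its lowered transcript in the methionine-overaccumulating mto1 mutant, had by far the largest fall. Its level was 0.538 and 0.383 CPM in se-1 against 115 and 114 CPM in wild type, a ratio of 248. The reads behind this were 18 in se-1 and 4376 in wild type, a count ratio of 251 with a 95% interval of 158 to 424 that covers counting error only. The MRD1 span, chr1:19963047-19964712, shares bases with the annotated genes HEI10 (AT1G53490) and AT1G07887. The gap from MRD1 to HEI10 was -1446 bases, where a negative gap is an overlap. Whether strand was used in counting is not given in the sources used here, so reads in the shared stretches cannot be assigned. The same limit holds for all 30 members (24.8%) whose span overlaps another annotated gene, beside 32.5% of the 13773 rows. Besides MRD1 these include NUA, EFS, POK2, DEK1, ATR, THI2.1, JR1, EBF2 and CO. HEI10 was at 11.0 and 12.4 CPM in se-1 and at 13.7 and 13.3 CPM in wild type (log2 fold change -0.21, edgeR quasi-likelihood adjusted p = 0.097), so no fall like that of MRD1 was seen in its row.

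BGLU28 (AT2G44460), a beta-glucosidase known for strong induction when sulfur is short, was at 2.04 and 2.54 CPM in se-1 against 35.7 and 33.1 CPM in wild type. Its ratio of 15.0 was the largest after MRD1. GH9B9 (AT2G44540), an endo-1,4-beta-glucanase of glycosyl hydrolase family 9, was at 4.14 and 6.90 CPM in se-1 against 51.7 and 56.5 CPM, a ratio of 9.80. AT3G43670, a copper amine oxidase of the kind that breaks down polyamines, was at 3.71 and 3.73 CPM against 35.0 and 35.2 CPM, a ratio of 9.43. In each of these both se-1 values lay far below both wild-type values, and those of GH9B9 were the furthest apart.

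BAM5 (AT4G15210), a beta-amylase that cuts maltose from starch-like glucans outside the plastid, combined a large fall with a high level. Its CPM was 29.3 and 26.8 in se-1 and 266 and 258 in wild type, a ratio of 9.32. TET11 (AT1G18520), one of the tetraspanins, small proteins that cross the membrane and organise it, was at 6.94 and 6.32 CPM in se-1 against 57.4 and 51.1 CPM, a ratio of 8.18. These 6 genes were the members with a ratio of at least 8.

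**Figure D1:**
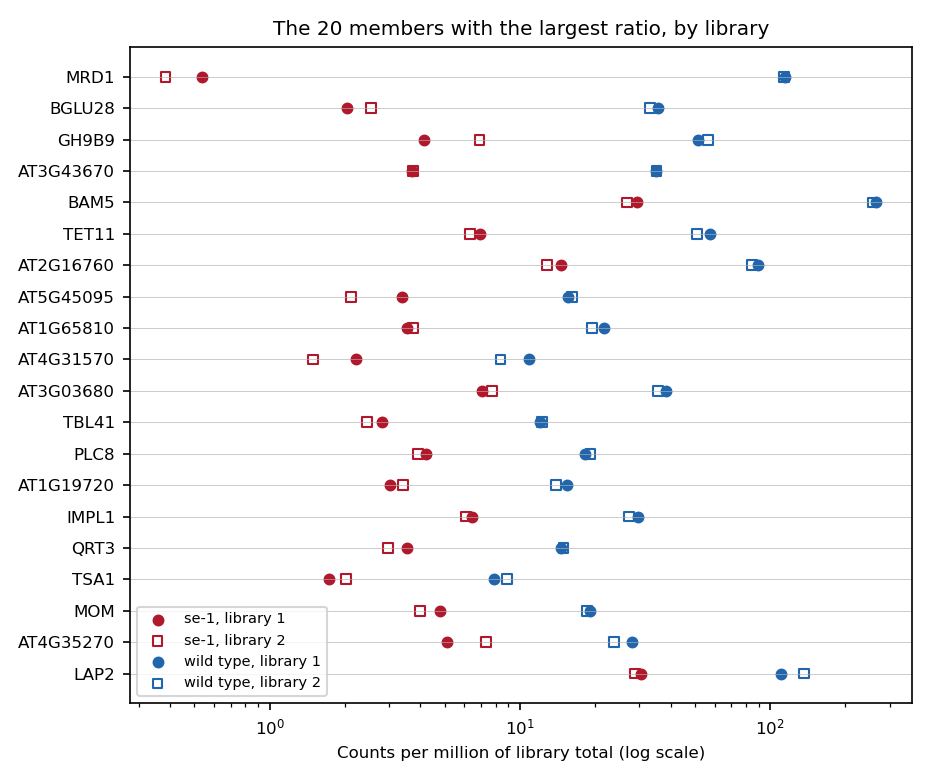
CPM on a log axis for the 20 members with the largest ratio, with 1 point per library (red se-1, blue wild type, filled library 1, open library 2). MRD1 is set apart at 0.538 and 0.383 CPM in se-1, and in every row both red points lie left of both blue ones, as the rule requires.

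After these 6 the ratios came down fast: 11 members had a ratio of at least 5, 20 of at least 4, and the other 101 lay between 3 and 4. The median was 3.41. AT2G16760, a protein of the calcium-dependent phosphotriesterase family, was at 14.6 and 12.8 CPM against 89.3 and 84.8 CPM, a ratio of 6.36. The uncharacterized AT5G45095 was at 3.39 and 2.11 CPM against 15.5 and 16.2 CPM, a ratio of 5.76. AT1G65810, annotated as a P-loop nucleoside triphosphate hydrolase, had a ratio of 5.62, AT4G31570, annotated as a nucleoporin, one of 5.22, and AT3G03680, a C2-domain protein, one of 5.03. The lowest wild-type value was at least 2.53 times the highest se-1 value in each of the 121. Replicates of one genotype were about as close for members as for all rows. The median absolute log2 ratio between the se-1 libraries was 0.102 for members and 0.103 over the 13773 rows. Between the wild-type libraries it was 0.1005 and 0.0953.

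At the edge of the rule the values run on without a gap. Just inside lay HAC12 (ratio 3.01), SNRK2.7 (3.03) and the pentatricopeptide gene AT5G43820 (3.03). Just outside lay CP31B (2.98), MBD9 (2.98) and AT3G08960 (2.97). CP31B, for example, was at 26.4 and 22.0 CPM in se-1 and at 74.8 and 69.4 CPM in wild type.

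Most of the RNA the members lost came from a pair of intronless genes that encode glycine-rich proteins, whose function is not known. AT3G24250 was at 3194 and 3365 CPM in se-1 and at 10554 and 11973 CPM in wild type, where it took more reads than any other nuclear row. AT1G04660 was at 1984 and 1823 CPM in se-1 and at 6487 and 7053 CPM in wild type, where it ranked 3. Per kilobase of transcript they ranked 1 and 4 among nuclear rows in wild type. The 121 members together held 6821 and 6818 CPM in se-1 and 23208 and 24990 CPM in wild type, and this pair made up between 73.4% and 76.1% of that in every library. Without the pair, the sums were 1643 and 1630 CPM in se-1 and 6167 and 5964 CPM in wild type.

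Members other than the glycine-rich pair took far fewer reads. The median member was at 26.6 CPM in wild type, close to the 27.9 CPM over the 13773 rows. There 18 members, the pair included, had a mean of at least 100 CPM. ACA8, a calmodulin-regulated calcium pump of the plasma membrane, was at 138 and 127 CPM in se-1 and at 492 and 473 CPM in wild type. HDG3, a homeodomain factor of the class IV family, was at 91.8 and 94.9 CPM against 379 and 362 CPM. UGT71B8, a glucosyltransferase of small molecules, was at 101 and 112 CPM against 338 and 310 CPM.

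Members had long transcripts, a property the rule did not use. Transcript length here is the summed length of all annotated exons of a locus, with shared bases counted once. Its median was 2929 nt for members beside 1866 nt over the 13773 rows. Transcripts over 4000 nt made up 31.4% of members (38 genes) and 5.19% of all these rows, and 8.49% of the rows over 5000 nt were members, beside 0.369% of those above 1500 and up to 2000 nt. The encoded proteins had a median of 725 residues beside 414, and 37.2% of them were over 1000 residues beside 6.51%. In the longest annotated transcript, more than 20 exons were found in 14.9% of members and in 3.07% of all rows. By the same count, 1-exon genes made up 14.0% beside 11.4%. Base composition did not set members apart, with a median of 41.4% G and C in both.

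**Figure D2:**
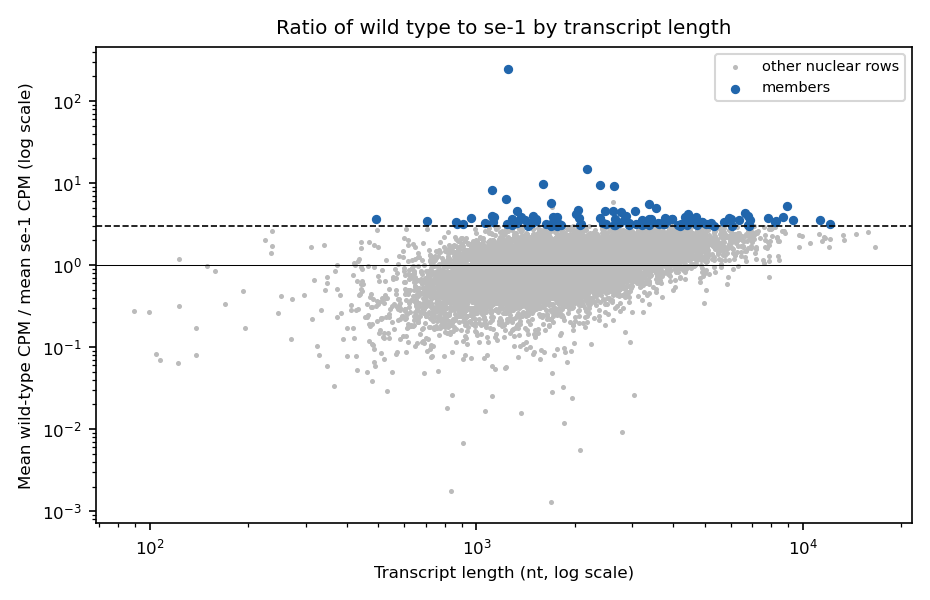
Ratio of mean wild-type to mean se-1 CPM against transcript length, both on log axes, for the nuclear rows with a mean of at least 5 CPM (grey) and the 121 members (blue); the dashed line is the ratio of 3. The whole cloud rises with length, and a larger share of it lies above the line among long transcripts than among short ones.

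**Figure D3:**
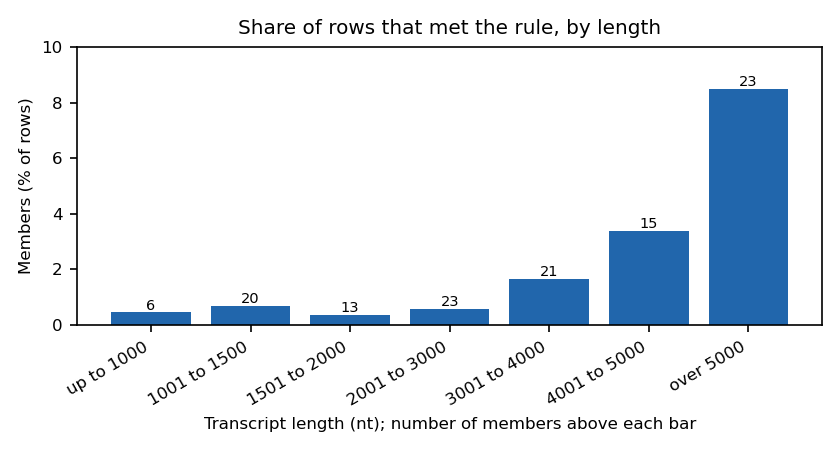
Members as a percentage of the nuclear rows in each class of transcript length, with the number of members above each bar. The share is 0.447% up to 1000 nt and 8.49% over 5000 nt.

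Over all genes, transcript length moved with the difference between the genotypes. The fitted trend of the log2 ratio of se-1 to wild type was 0.64 near 1000 nt, 0.02 near 2000 nt, -0.66 near 4000 nt and -0.92 near 6000 nt. With this trend taken out, 56 of the 121 members still had a ratio of at least 3, 35 lay from 2 to below 3 and 30 below 2. None of the 38 members over 4000 nt kept a ratio of 3, and their median went from 3.38 to 1.84. All 39 members of up to 2000 nt kept it, and their median went from 3.41 to 4.11. The trend was positive at their lengths, so its removal could only raise their ratios, and this outcome was fixed in advance. The RNA had been amplified before sequencing; the part of RNA quality or amplification in the length trend was not tested. The values after removal of the trend are therefore given for each role below. For short members, in every role below, keeping a ratio of 3 there follows from the sign of the trend and is no separate result.

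The longest member was AT2G17930 (12118 nt), annotated in the phosphatidylinositol kinase-like family, at 15.1 and 16.2 CPM in se-1 and at 52.1 and 46.3 CPM in wild type. Its ratio of 3.14 became 1.42 without the trend, the lowest of all members. AT5G24740, a vacuolar protein sorting protein of 11260 nt, went from 3.60 to 1.64. The shortest member, the uncharacterized AT4G37685 (492 nt), was at 4.20 and 3.11 CPM in se-1 and at 13.3 and 13.2 CPM in wild type, and its ratio went from 3.63 to 7.11. Other short members moved the same way: AT5G39130, a germin-like cupin of 864 nt, from 3.37 to 5.78, the lipoprotein gene AT3G42725 from 3.18 to 5.44, and TIM17-3, a mitochondrial import subunit, from 3.20 to 5.31.

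Chromatin and transcription proteins formed the largest named role among members, with 12 genes, a median transcript length of 4970 nt and ratios from 3.01 to 4.28. Roles were assigned to members alone, so the role counts here and below have no share over all rows beside them. MOM (AT1G08060), which keeps silenced loci silent without changing their DNA methylation, was at 4.79 and 3.98 CPM in se-1 and at 19.0 and 18.5 CPM in wild type. NUA, the nuclear pore anchor, had a ratio of 3.92, and EFS, a histone H3 lysine methyltransferase that holds back flowering, one of 3.76. NRPE3B, a subunit of RNA polymerase V, was at 17.5 and 16.2 CPM against 62.3 and 59.8 CPM. It was the only one of the 12 with a ratio of 3 or more without the length trend (3.83). Its transcript has 1526 nt, where the trend was 0.08, so removal could only raise its ratio. SUVR5, a histone methyltransferase, had a ratio of 3.40 and HAC12, a histone acetyltransferase of the CBP family, one of 3.01.

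SIN3-like proteins are scaffolds of histone deacetylase complexes, and 3 of the 6 in the genome were members. SNL2 was at 7.27 and 6.08 CPM in se-1 and at 28.7 and 23.4 CPM in wild type. SNL1 was at 15.9 and 15.2 CPM against 53.6 and 45.7 CPM, and SNL5 at 5.54 and 5.55 CPM against 19.0 and 14.9 CPM. The SNL1 and SNL2 proteins are 70.4% identical. The other members of the family, looked at after these values were seen, also fell in edgeR's quasi-likelihood fit over 18714 genes: SNL6 by 1.51 on the log2 scale (adjusted p = 1.3e-11), SNL4 by 1.33 (adjusted p = 6.2e-09) and SNL3 by 1.01 (adjusted p = 4.5e-08). In that fit 36.0% of tested genes were called lower at an adjusted p of 0.05 and 36.2% higher. After removal of the length trend, 34.4% were called lower and 32.6% higher. There SNL6 had a log2 fold change of -0.80, SNL4 of -0.53 and SNL3 of -0.25, all still called. Counts of called genes below are to be read beside these shares.

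Most listed genes of RNA-directed DNA methylation, the pathway in which RNA polymerases IV and V and small RNAs guide methylation, fell, but less than 3 times. Of 20 listed genes, none of them a member, 18 were called lower, 1 higher and 1 was not called. Over all tested genes 36.0% were called lower and 36.2% higher. The median log2 fold change of the list was -0.71 beside 0.00 over all tested genes. The list leaves out the polymerase V subunit NRPE3B, a member with a ratio of 3.62. AGO4, the effector argonaute, stood nearest to the rule at 220 and 205 CPM in se-1 and 633 and 621 CPM in wild type. Without the length trend, 12 of the 20 were called lower and 4 higher.

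Genes that copy and protect DNA gave 6 members, with a median transcript length of 4037 nt. REV3 and REV1, which copy past damaged bases, had ratios of 3.57 and 3.42, and the checkpoint kinase ATR, with a transcript of 9295 nt, one of 3.57. REV1 was at 8.77 and 8.24 CPM in se-1 and at 29.8 and 28.4 CPM in wild type. TERT, the catalytic subunit of telomerase, was at 7.32 and 8.14 CPM against 27.1 and 21.6 CPM. MSH1, which limits recombination of organelle genomes, had a ratio of 3.16, and POLGAMMA1, an organelle DNA polymerase, one of 3.14. None of these 6 kept a ratio of 3 without the length trend, where they ran from 1.69 to 2.21.

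The 6 intracellular immune receptors of the nucleotide-binding leucine-rich repeat class had ratios from 3.04 to 3.64, and from 1.68 to 2.36 without the length trend. RRS1, which carries a WRKY domain and works with a partner receptor to detect bacterial effectors, was at 4.09 and 3.30 CPM in se-1 and at 11.9 and 12.9 CPM in wild type. TTR1, its closest relative by protein (63.6% identity), was at 3.07 and 2.97 CPM against 11.8 and 10.2 CPM. AT4G36140, the smallest fall of the 6, is in turn closest to TTR1.

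Cell wall genes were mixed in size and in length. GSL05, the callose synthase that acts in wounding and at pathogen entry sites, was at 74.1 and 65.1 CPM in se-1 and at 261 and 246 CPM in wild type. GSL1, a callose synthase 65.0% identical to it, was at 38.6 and 40.0 CPM against 117 and 122 CPM. Their transcripts are 6041 and 6083 nt long, and without the length trend their ratios were 1.92 and 1.60. Over the 10 callose synthase genes with a row named so in the annotation, edgeR called 9 lower and 0 higher, but 5 lower and 2 higher without the length trend. GSL12 was at 640 and 597 CPM in se-1 and at 1312 and 1320 CPM in wild type (log2 fold change -1.10, adjusted p = 2.2e-09 in edgeR), which became -0.15 and not called without the trend.

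CESA5, a cellulose synthase of the primary wall, was at 17.0 and 17.4 CPM in se-1 and at 51.5 and 54.7 CPM in wild type. Its closest relative CESA6 fell by 1.10 on the log2 scale (edgeR adjusted p = 1.7e-09), and CESA2 by 1.29 (edgeR adjusted p = 7e-11). Without the length trend the ratio of CESA5 went from 3.08 to 1.91, and the log2 fold changes were -0.40 for CESA6 and -0.58 for CESA2. Over the 9 tested cellulose synthase genes edgeR called 7 lower and 1 higher, and 4 lower and 2 higher without the trend. AT1G44120, a partner of the cellulose synthase complex, had a ratio of 3.50. The shorter wall genes kept a ratio of 3 without the length trend. The trend lay between 0.02 (TBL41) and 0.05 (GH9B9) for all of these but QRT3 (-0.17), so its removal could hardly lower their ratios. TBL41, of a family that acetylates wall polymers, had a ratio of 4.65 and 4.70 without the trend. QRT3, a polygalacturonase that parts pollen grains of a tetrad, was at 3.55 and 2.97 CPM in se-1 and at 14.6 and 14.9 CPM in wild type.

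**Figure D4:**
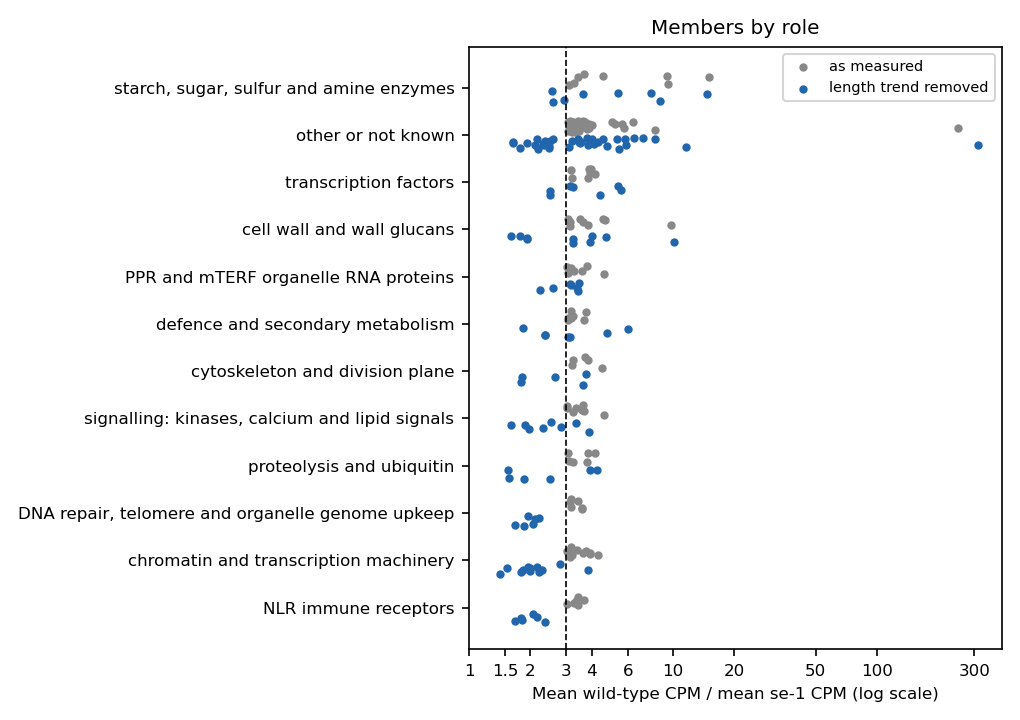
Ratio of mean wild-type to mean se-1 CPM on a log axis for each member, by role, as measured (grey) and with the length trend removed (blue); the dashed line is the ratio of 3. Blue points of the immune receptors and of the DNA repair genes all lie left of the line, from 1.68 to 2.36 and from 1.69 to 2.21.

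Among enzymes of starch, sugar, sulfur and amine metabolism, 8 were members, and 5 of them kept a ratio of 3 without the length trend. Besides BGLU28, AT3G43670 and BAM5 these included IMPL1, a myo-inositol monophosphatase-like protein of the plastid, at 6.46 and 6.08 CPM in se-1 and at 29.7 and 27.3 CPM in wild type. AT2G17630, of the pyridoxal phosphate-dependent transferases, was at 75.5 and 76.1 CPM against 258 and 259 CPM. SULTR3;1, a sulfate transporter of the plastid envelope, was at 17.3 and 18.1 CPM against 58.3 and 57.1 CPM. Of the other SULTR3 genes, those looked at (SULTR3;2, SULTR3;4 and SULTR3;5) were all called lower by edgeR, beside 36.0% of all tested genes. Without the length trend their log2 fold changes were -0.50, -0.98 and -0.48, all still called. SULTR3;4 fell by 1.05 on the log2 scale (edgeR adjusted p = 2.7e-09).

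BGLU28 belongs to a list of genes known to respond to sulfur shortage, and the list did not move as one. Of 19 tested genes 9 were called lower, among them BGLU28, whose fall chose it, while 6 were called higher and 4 were not called. The median log2 fold change of the list was -0.23. Over all tested genes 36.0% were called lower and 36.2% higher. SDI1, which holds back glucosinolate synthesis when sulfur is short, fell from 128 and 141 CPM in wild type to 55.5 and 49.9 CPM in se-1 (log2 fold change -1.36, SE 0.089, edgeR adjusted p = 1.4e-10). The sulfate-reducing enzyme APR1 fell by 1.03 on the log2 scale (edgeR adjusted p = 2.9e-09) and APR2 by 0.61 (edgeR adjusted p = 5e-06). ATP sulfurylase APS1 rose by 0.45 (edgeR adjusted p = 8.5e-05) and the sulfate importer SULTR1;2 by 0.51 (edgeR adjusted p = 0.0091), or by 1.21 without the length trend. Of the short LSU genes, LSU1 fell by 0.49 (edgeR adjusted p = 0.0017), while LSU2 had -0.07 (edgeR adjusted p = 0.51). Without the length trend LSU1, LSU2 and LSU3 were at -1.25, -0.89 and -1.11, and 9 genes of the list were called lower and 3 higher.

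The beta-amylase family went in opposite directions. Beside BAM5, BAM8 fell by 1.06 on the log2 scale (edgeR adjusted p = 7.4e-09), BAM7 by 0.89 (edgeR adjusted p = 1.3e-06), BAM3 (AT4G17090) by 0.88 (edgeR adjusted p = 0.00015) and BAM1 (AT3G23920) by 0.49 (edgeR adjusted p = 7.7e-05). Without the length trend BAM7 and BAM1 had log2 fold changes of -0.40 and -0.29. BAM9 was at 128 and 119 CPM in se-1 and at 13.3 and 14.3 CPM in wild type, a log2 fold change of 3.15 (SE 0.095, edgeR adjusted p = 4.8e-15) that was 3.12 without the length trend. BAM9 is a family member without known catalytic activity. Of the 8 tested genes 5 were called lower, BAM5 among them, and 2 higher, with a median log2 fold change of -0.68. Without the length trend 6 were called lower and 2 higher. Over all tested genes 36.0% were called lower and 36.2% higher, and 34.4% and 32.6% without the trend.

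TET11 stood apart in size from the other tetraspanins. TET1, which patterns leaves and the root tip, was at 68.4 and 69.3 CPM in se-1 and at 135 and 124 CPM in wild type (log2 fold change -0.92, edgeR adjusted p = 9.2e-09). TET9 rose from 1.43 and 1.45 CPM to 6.14 and 4.74 CPM (log2 fold change 1.90, edgeR adjusted p = 2.8e-07). Of 10 tested tetraspanin genes 5 were called lower, TET11 among them, 1 higher and 4 were not called, with a median log2 fold change of -0.25. Without the length trend 7 were called lower and 1 higher. The shares over all tested genes were 36.0% lower and 36.2% higher, and 34.4% and 32.6% without the trend. TET17 had 0 counts in all 4 libraries.

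Transcription factors were put in a group of 7 with RR22, a response regulator whose protein has 142 residues. These genes were mostly short, and 5 of 7 kept a ratio of 3 without the length trend. HDG3, described above, took the most reads of the 7. Of the 5 it alone lay where the trend was negative (-0.35). AT4G35270, of the RWP-RK family that includes nitrate-response regulators, had the largest ratio of the 7, 4.17, at 5.11 and 7.33 CPM in se-1 and at 28.0 and 23.8 CPM in wild type. RR22, a cytokinin response regulator, had a ratio of 3.92, and DDF1, a stress-response factor of the AP2 class, was at 2.42 and 2.78 CPM against 9.69 and 10.5 CPM. The B3-domain gene AT5G60140 had a ratio of 3.81, CO, the photoperiodic flowering regulator, one of 3.20 and GNC, a GATA factor that promotes greening, one of 3.17.

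HDG3 is also expressed in endosperm, the tissue that surrounds the embryo, and served as one of 16 endosperm markers. The summed level of those markers was 284 and 279 CPM in se-1 and 567 and 538 CPM in wild type, but without HDG3 it was 192 and 184 CPM in se-1 and 188 and 176 CPM in wild type. Of 13 tested markers 6 were called lower, HDG3 among them, and 5 higher, beside 36.0% lower and 36.2% higher over all tested genes. PHE1, an imprinted endosperm gene, rose by 2.90 on the log2 scale (edgeR adjusted p = 7.5e-13) and the HDG3 relative HDG8 by 1.97 (edgeR adjusted p = 1.2e-10), while FWA fell by 0.85 (edgeR adjusted p = 1.5e-07). Seed coat markers summed to 541 and 547 CPM in se-1 and to 491 and 461 CPM in wild type, with 3 of 13 called lower and 6 higher. Suspensor markers summed to 186 and 191 CPM against 198 and 196 CPM, with 2 of 7 called lower and 3 higher. Embryo proper markers summed to 2054 and 1971 CPM in se-1 and 2633 and 2702 CPM in wild type, with 8 of 17 called lower and 5 higher. No marker of these 4 lists had 0 counts in all libraries. The part of the mix of tissues in the members' falls was not tested.

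Other HDG genes also did not follow HDG3 together. HDG1 was at 88.7 and 76.4 CPM in se-1 and at 96.4 and 106 CPM in wild type (log2 fold change -0.30, edgeR adjusted p = 0.0054), which became 0.14 without the length trend. HDG7 rose by 1.51 on the log2 scale (edgeR adjusted p = 7.8e-09), and by 2.32 without the trend. Of the 9 tested genes with an HDG name, which leaves out other class IV genes such as FWA, 5 were called lower and 3 higher, and 2 lower and 4 higher without the length trend.

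Genes of the cytoskeleton and of the division plane were represented by 5 members. POK2, a kinesin that sets where the new cell wall joins the old one, was at 13.1 and 12.1 CPM in se-1 and at 48.4 and 47.4 CPM in wild type, with a transcript of 8663 nt. SCAB1, an actin-binding protein of stomatal closure, was at 30.9 and 27.2 CPM against 108 and 107 CPM. TSA1, which binds the nuclear protein TONSOKU, had a ratio of 4.49, NEDD1, a recruiter of gamma-tubulin, one of 3.23 and the class XI myosin MYA1 one of 3.19. Without the length trend SCAB1 (3.73) and TSA1 (3.63) kept a ratio of 3. Among the 13 class XI myosins, edgeR called 11 lower and 1 higher, and 6 lower and 4 higher without the length trend.

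Proteolysis contributed DEK1, a membrane calpain needed for the embryo's epidermis, at 36.2 and 36.7 CPM in se-1 and at 139 and 138 CPM in wild type. PRT6, a ubiquitin ligase that reads the N-terminal residue of proteins, had a ratio of 3.08, and EMB2771, also annotated as a ubiquitin ligase, one of 3.05. EBF2, an F-box protein that removes the ethylene-response factor EIN3, was at 9.37 and 8.76 CPM against 26.9 and 31.7 CPM. LAP2, a leucine aminopeptidase of 2018 nt, was at 30.5 and 28.9 CPM in se-1 and at 110 and 137 CPM in wild type, and kept its ratio of 4.16 without the length trend (4.22). The F-box gene AT5G38590 went from 3.83 to 3.93, while DEK1 went from 3.79 to 1.86. The trend was 0.02 for LAP2 and 0.04 for AT5G38590, so its removal could not lower their ratios.

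In signalling, 8 genes were members. TOR, the growth-regulating kinase, was at 35.2 and 37.2 CPM in se-1 and at 127 and 113 CPM in wild type. PLC8, a phospholipase C, was at 4.20 and 3.93 CPM against 18.2 and 19.2 CPM, the largest ratio of the 8 (4.60). The member named BAM3 in the annotation is AT4G20270, a receptor kinase that binds CLE peptides and not a beta-amylase, at 2.53 and 2.54 CPM against 9.53 and 8.83 CPM. The AGC kinase AT4G14350 had a ratio of 3.57 and the calcium-dependent kinase CPK23 one of 3.23. Only PLC8 (3.89) and SNRK2.7 (3.33), a kinase of the SnRK2 family, kept a ratio of 3 without the length trend, and TOR had 1.61.

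Proteins of organelle RNA were 7, of which 6 carry pentatricopeptide or related repeats and 1 is a mitochondrial transcription termination factor. AT1G19720 was the most reduced, at 3.01 and 3.40 CPM in se-1 and at 15.4 and 13.9 CPM in wild type. AT1G71210 took the most reads, at 16.9 and 16.5 CPM against 59.8 and 59.2 CPM. MEF7, needed for RNA editing in mitochondria, had a ratio of 3.07. Without the length trend 5 of the 7 kept a ratio of 3.

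Defence genes and genes of secondary metabolism were 7, and 4 kept a ratio of 3 without the length trend. THI2.1, a thionin that is toxic to microbes and induced by jasmonate, was at 4.41 and 4.69 CPM in se-1 and at 16.9 and 17.2 CPM in wild type. JR1, a jasmonate-responsive lectin, was at 13.6 and 13.0 CPM against 49.8 and 47.3 CPM, and LOX3, which makes a jasmonate precursor, had a ratio of 3.15. PAL1, the entry enzyme of phenylpropanoid synthesis, was at 17.5 and 15.5 CPM against 54.4 and 46.7 CPM. PAL2, its closest relative at 90.8% identity, fell by 0.71 on the log2 scale (edgeR adjusted p = 5.4e-07), which became -0.36 without the length trend. The transporter ABCG34 had a ratio of 3.16 and GSTU26, a glutathione transferase, one of 3.23.

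The remaining 39 members have no shared role or no known one. FTM1, a stearoyl-ACP desaturase expressed in meristems, was at 7.16 and 8.72 CPM in se-1 and at 32.6 and 30.8 CPM in wild type. NIP1, which interacts with the plastid RNA polymerase, had a ratio of 3.15. Their ratios without the length trend ran from 1.64 to 313, and 24 of the 39 kept a ratio of 3.

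Members were compared with their closest relatives by protein, which the rule did not choose. A relative, aligned over at least 50% of the protein, was found for 88 members, and 7 of these had another member as the closest one. Of the 67 distinct relatives that were tested and were no members, 51 (76.1%) were called lower by edgeR, 9 higher and 7 were not called, with a median log2 fold change of -0.70, beside 36.0% called lower and 36.2% higher over all tested genes. Relatives were also long, with a median transcript of 2509 nt, and without the length trend 38 (56.7%) were called lower and 13 higher, with a median of -0.36, beside 34.4% lower and 32.6% higher over all. Reads from near-identical copies may be split between them, and how such reads were counted is not given in the sources used here. AT1G59359, a ribosomal protein S5 gene, has a relative of 100% protein identity (AT1G58684), and the cupin AT5G39130 one of 97.3% (GER2), so their values are uncertain.

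**Figure D5:**
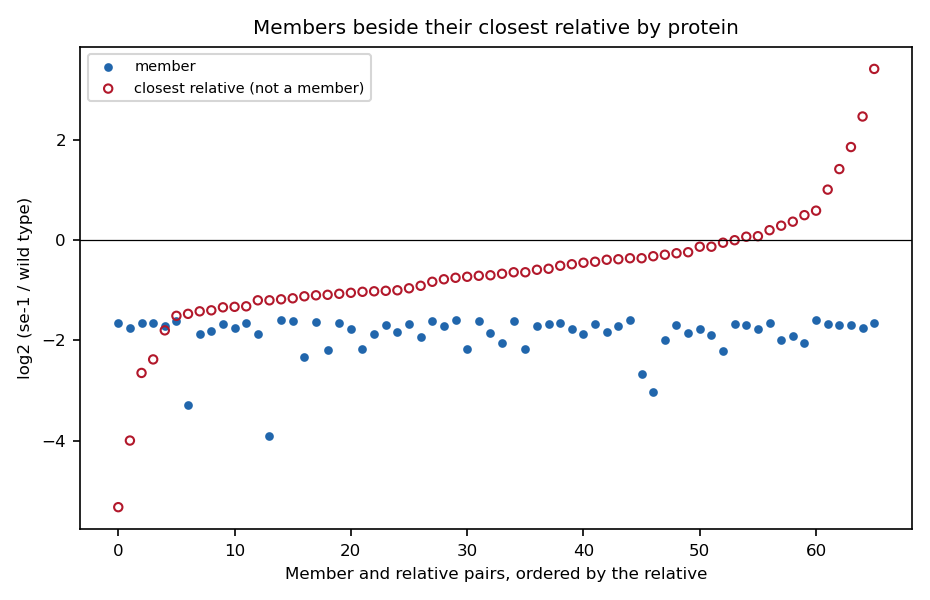
The log2 ratio of se-1 to wild type for 66 pairs of a member (blue) and its closest relative that is no member (red, open), ordered by the relative; 1 relative with 0 counts in se-1 is left out. Most relatives lie below 0, with a few far above it, the highest at 3.42.

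Several relatives went the other way. MIOX1, which opens myo-inositol on the way to wall sugars, was at 39.7 and 43.2 CPM in se-1 and at 126 and 134 CPM in wild type. Its relative MIOX4 rose from 0.318 and 0.155 CPM to 2.85 and 2.35 CPM (log2 fold change 3.42, edgeR adjusted p = 1.5e-07), and MIOX2 by 4.07 (edgeR adjusted p = 8.9e-09). GSTU25 rose by 1.86 beside GSTU26, and TIM17-2 rose from 388 and 451 CPM to 825 and 873 CPM beside TIM17-3. AT4G30910, an adjacent leucine aminopeptidase gene whose protein is 86.1% identical to LAP2, was at 43.3 and 48.0 CPM in se-1 and at 31.2 and 33.1 CPM in wild type (log2 fold change 0.50, edgeR adjusted p = 6.8e-05). LAP2 and its neighbour thus differed in direction. Of the 5 CBP-family acetyltransferases, edgeR called 4 lower, HAC12 among them, and 1 higher, and 3 lower and 2 higher without the length trend. HAC2 was the one called higher, by 1.98 on the log2 scale (edgeR adjusted p = 1.5e-08).

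Relatives that fell with their member included the neighbours of the leading glycosidases. BGLU29, 73.2% identical to BGLU28 and next to it, was at 6.30 and 5.89 CPM in se-1 and at 14.3 and 13.5 CPM in wild type (log2 fold change -1.20, edgeR adjusted p = 6.3e-08). GH9B10, 91.2% identical to GH9B9 and next to it, was at 1.29 and 1.44 CPM against 3.55 and 4.03 CPM (log2 fold change -1.47, edgeR adjusted p = 1e-05). ACA10 fell by 1.02 on the log2 scale (edgeR adjusted p = 3.7e-09) and EBF1 by 1.01, which became -0.30 and -0.60 without the length trend. ABCG39 fell by 2.65, further than its member relative ABCG34, and LOX4 by 2.38, further than LOX3; both were too rare to reach the mean of 5 CPM.

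Members did not cluster along the chromosomes into runs. Chromosome 1 held 36, chromosome 2 held 17, chromosome 3 held 21, chromosome 4 held 17 and chromosome 5 held 30, or 29.8%, 14.0%, 17.4%, 14.0% and 24.8%, beside 26.0%, 15.1%, 20.1%, 15.2% and 23.7% of the 13773 rows. No 2 members had 2 or fewer annotated genes between them. BGLU28 and GH9B9, the second and the third by ratio, lie 36.2 kb apart with 10 annotated genes between them. The genes on either side of the first 20 members were no members, and of 31 that were tested 13 were called lower and 12 higher, where all tested genes had 36.0% lower and 36.2% higher, and their median log2 fold change was -0.21.

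A gene beside BAM5 was lost at a low level. FH3 (AT4G15200), a formin that nucleates actin filaments, begins its annotated span 283 bases from the 3′ side of BAM5 on the same strand. It had 0 counts in both se-1 libraries and 2.75 and 3.05 CPM in wild type, or 111 counts in all. With 3 counts over the se-1 group in place of 0, it was at least 38.2-fold lower. On the other side of BAM5, ABCG41 was at 4.04 and 3.64 CPM against 6.72 and 8.78 CPM (log2 fold change -1.03, edgeR adjusted p = 2.5e-05), which became -0.19 and not called without the length trend. FH3 was singled out after its values were seen.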

How the data were processed

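The authors deposited raw counts of reads per gene for each library, which is the unit used here. The submitters' processing notes name the TAIR10 build and, with no role or order, the tools HISAT2 2.0.5, FastQC 0.11.5, featureCounts and Cufflinks 2.2.1. Not given in the sources used here are the use of strand, the treatment of reads with several matches and the annotation release. Per the labels' protocols the RNA was amplified before library preparation.

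CPM is the count divided by the library total. The members and all gene lists, roles and families were chosen with earlier results of these data known, and roles and families after values were seen. Other genes were tested with edgeR 4.0.16 (quasi-likelihood, TMM, genes with enough counts, Benjamini-Hochberg over 18714 genes, two-sided; R 4.3.3). With 2 libraries per genotype, p-values set the genotype difference against a spread between libraries that edgeR estimates with information from all genes. They cover these samples only.

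Gene positions, transcript lengths, proteins for alignment and promoters came from the RefSeq TAIR10.1 annotation, matched by locus; the count tables hold no coordinates. Relatives were found with BLAST 2.17.0 (E value up to 1e-10). The length trend is a natural spline with 5 degrees of freedom over 18495 coding genes, which accounts for 13.0% of the variance of their log2 fold changes, and enters the edgeR fit of 18529 genes as an offset. Named members are the 20 with the largest ratio, the most abundant, those at the edge of the rule, the longest and shortest, the leading ones of each role and those in the lists or with a member as closest relative; named other genes come from the lists, families, relatives and neighbours. Alternatives were another scaling, DESeq2 1.42.0, other filters, the replicate block, each library left out and the length trend.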

Additional observations from a re-analysis of the deposited data

How the results depend on the processing

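The 121 members came out as the same 121 genes with TMM-scaled CPM, and as 122 with DESeq2 size factors, all 121 among them. The minimum CPM and ratio set the number: 287 genes at a minimum mean of 1 CPM, 79 at one of 10 CPM, 318 with a ratio of at least 2.5 and 20 with a ratio of at least 4. The median transcript length moved too, to 2261, 3363, 3168 and 2429 nt in that order, against 2929 nt for the 121. With the length trend removed the rule gave 133 genes, 56 of them among the 121, and their median transcript length was 1204 nt, below that of all rows. Leaving out 1 library gave between 93 and 143 genes, of which 88 to 111 were among the 121, with a median length from 2786 to 3301 nt. Without 1 library, between 6 and 22 of the 121 had a ratio below 3. No ratio could come below 1 there, since the rule put each se-1 value below both wild-type values. With the length trend removed, the lowest member ratio was 1.42.

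The genes called lower numbered 6746 and those called higher 6777. Over the alternatives both counts stayed within 1.5 times of these, the lowest being 5615 lower and 5404 higher with DESeq2, and leaving out 1 library gave 6185 to 6280 lower and 6197 to 6253 higher; the lone library of a genotype is then assumed to vary like the other genotype. With the replicate block in edgeR, 6840 genes were called lower and 6843 higher. The replicate numbers were not taken to pair the samples, since the deviations of same-numbered libraries were correlated at only 0.0263 across genes. Among 176 called genes of the lists, families and closest relatives, members left out, removal of the length trend turned the sign of 20. In edgeR 11 of these were then called in the other direction: DRNL went from 0.24 to -0.38, while XIB came to 0.40, HDG2 to 0.39, AT1G05490 to 0.48, XID to 0.49, HAC5 to 0.21, DMS3 to 0.20, GSL11 to 0.36, KTF1 to 0.37, AT5G20610 to 0.26 and the receptor kinase BAM1 (AT5G65700) to 0.35, all from below 0. Among the 9 not called were HDG1 (to 0.14), AT4G36080 (to 0.08) and POLGAMMA2 (to 0.07). Of 79 genes outside the members that were followed under the alternatives, 6 lost their call without turning when the length trend was removed, 5 with DESeq2, 2 with no filter and 2 to 5 when 1 library was left out. Falls of long members rest on the scale chosen for length, the cause of which was not tested, and 2 libraries per genotype limit every comparison.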
